A study of Mus musculus with 3 samples.

Results

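The genes described here are 9 genes through which B cells receive and give signals in contact with T cells: *Cd40*, *Cd80*, *Cd86*, *Icosl*, *Cd83*, *Cd274*, *Pdcd1lg2*, *Slamf1* and *Icam1*. They were picked by symbol from the 32285 gene rows of the count matrices. Single-cell RNA was measured in spleen cells taken 10 days after mice were immunized once, intraperitoneally, with SRBCs (sheep red blood cells), which start a germinal center (GC) reaction. There was 1 library each of WT mice, of 3′RR-*BCL2* mice and of Igκ-*BCL2* mice, on a mixed B6 and 129 background. Both mutants carry a human *BCL2* cassette driven from its own promoters, placed as a randomly integrated transgene under the core of the 3′ regulatory region (3′RR) of the IgH locus in 3′RR-*BCL2* mice, and knocked into the Igκ locus in place of the Jκ region in Igκ-*BCL2* mice. The age of these animals is not given in the sources used here. The sample labels call the WT cells sorted B cells and the cells of both mutants whole tissue, while the methods of the study describe magnetic sorting of B cells for these experiments, and this difference could not be settled. The 3′RR-*BCL2* library held 1713 *Xist* UMIs per 1000000 UMIs (CPM) against 0.157 in WT and 0.175 in Igκ-*BCL2*, so that sex and genotype cannot be told apart in any comparison with that library.

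A B cell that has taken up antigen presents it to a follicular helper T cell and receives help through CD40, a receptor of the TNF receptor family that binds CD40 ligand and activates NF-κB. In turn, CD80 and CD86 engage CD28 on the T cell, ICOSL engages ICOS, SLAM family receptors and ICAM1 hold the contact, and PD-L1 (*Cd274*) and PD-L2 (*Pdcd1lg2*) bind the inhibitory receptor PD-1. In the GC, this exchange is known to take place mainly among the non-dividing cells of the light zone, for which CD83 and CD86 are common surface markers.

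RefSeq promoters (GRCm38.p6) were matched for 6 of the 9 genes, the others being *Cd40*, *Cd86* and *Cd83*. The 250 bases before the start are shown for *Icam1* and *Slamf1*, which were higher in GC-like than in resting-like cells of every library, and for *Cd274*, which was lower there in both mutants. All are on the plus strand, at chr9:21015690-21015939 for *Icam1*, chr1:171766882-171767131 for *Slamf1* and chr19:29367188-29367437 for *Cd274*. Capitals mark matches to the searched motifs.
Icam1: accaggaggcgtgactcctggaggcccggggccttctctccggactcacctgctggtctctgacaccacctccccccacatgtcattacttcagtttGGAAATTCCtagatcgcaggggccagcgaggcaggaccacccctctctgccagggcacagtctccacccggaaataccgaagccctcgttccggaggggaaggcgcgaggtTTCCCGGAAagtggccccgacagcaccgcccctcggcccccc
Slamf1: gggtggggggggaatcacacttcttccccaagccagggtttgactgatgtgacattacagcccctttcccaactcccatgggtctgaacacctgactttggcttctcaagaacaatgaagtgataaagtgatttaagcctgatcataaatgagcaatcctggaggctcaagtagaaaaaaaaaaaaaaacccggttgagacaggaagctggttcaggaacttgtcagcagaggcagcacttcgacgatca
Cd274: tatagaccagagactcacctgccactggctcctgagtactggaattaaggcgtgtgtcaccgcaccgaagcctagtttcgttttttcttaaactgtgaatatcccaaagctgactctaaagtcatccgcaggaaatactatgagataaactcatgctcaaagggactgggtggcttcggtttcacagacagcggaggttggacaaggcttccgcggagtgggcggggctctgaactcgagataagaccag
The *Icam1* stretch was rich in G and C (65.2%) with 15 CpG dinucleotides, as was that of *Icosl* (68.8%, 23 CpG). In comparison, *Cd274* held 50.4% and 11 CpG, and *Slamf1* held 47.2% and 3. On both strands, over the 250 bases before and 50 after the start, the *Icam1* promoter held GGAAATTCC, a match to the NF-κB motif GGAANTTCC found in 0.928% of 32851 promoters, starting 153 bases before the start. It also held TTCCCGGAA at 42 bases before the start, a match to the GAS motif TTCNNNGAA of STAT factors, found in 8.30% of promoters. The AP-1 motif TGANTCA (7.81% of promoters) was matched in *Cd80* alone among the 6. A second NF-κB form of 10 bases (1.63% of promoters) and the interferon-stimulated response element (ISRE, 3.44%) had no match in the 6. These matches describe the letters of the window and are not evidence of binding. In GRCm38, *Cd274* (chromosome 19, 29367455 to 29388095) lies before *Pdcd1lg2* (29410919 to 29471161), both on the plus strand, and *Cd80* (38455561 to 38496335) and *Cd86* (36603869 to 36666081, minus strand) share chromosome 16.

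The WT matrix held 11269 cell barcodes and 62777659 UMIs, that of 3′RR-*BCL2* 7579 and 45539172, and that of Igκ-*BCL2* 7034 and 37433924, and pairs of libraries shared between 15 and 24 barcodes. After filtering, 9754, 6396 and 6108 cells were placed into classes by marker genes, none of which is among the 9 genes. A level is the number of UMIs of a gene per 1000000 UMIs of all cells of a class (CPM), and its 95% interval covers counting error only. Where 3 values stand together without names, they belong to WT, 3′RR-*BCL2* and Igκ-*BCL2*, in this order. Since there was 1 library per genotype, no test between groups was possible and no p-value is given. A fold is called only at 1.5-fold or more in genes with at least 20 UMIs, seen or expected, in the smaller class. A gene can thus pass this minimum through the class where it was high alone. Counts of measurable and called genes therefore depend in part on the differences themselves, as do the shares of all genes. Fewer transcripts per cell and fewer expressing cells within a class cannot be told apart in such sums.

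Resting-like cells numbered 7922, 4259 and 4573. Their unused marker *S1pr1* was at 201, 230 and 309 CPM, against 23.5, 79.6 and 69.7 in all GC-like cells. *Foxo1* (157, 139 and 136 against 115, 148 and 152) and *Il4ra* (103, 100 and 101 against 78.9, 116 and 112) were higher than in the GC in WT only. Non-dividing GC-like cells numbered 23, 282 and 144, and dividing GC-like cells 25, 56 and 22, so WT values in the GC rest on few cells. Markers of the GC that were not used to choose the cells were higher in non-dividing GC-like than in resting-like cells of each library, *Fas* at 114, 122 and 119 CPM against 6.11, 11.2 and 12.0, and *Bcl6* at 77.3, 165 and 153 against 43.2, 48.0 and 50.9. Of the cells with enough GC markers, 23 of 52, 192 of 372 and 95 of 184 lay exactly at the limit of 3 markers. The activated-like class (158, 77 and 63 cells) was set by *Myc* and ribosome biogenesis genes, and the interferon-activated-like class (IFN-like: 221, 186 and 123 cells) by interferon-induced genes. The marginal zone-like class held 172, 75 and 16 cells. Its unused marker *Lmo2* (157, 109 and 135 CPM) was lower than in resting-like cells. Higher there were the unused markers *I830077J02Rik*, at 78.7, 57.5 and 47.7 against 2.98, 2.90 and 0.821, and *Plac8*, at 1143, 1195 and 1098 against 497, 410 and 312. Cells with B-1 and memory markers numbered 76, 37 and 38, and dividing cells outside the GC 77, 106 and 36. The cells with plasma cell markers (70, 122 and 101) were mixed in their unused markers, and their levels are shown in the plot only. *Irf4* was at 146, 113 and 203 CPM, below the 199, 199 and 259 of resting-like cells. *Prdm1* was higher, at 33.8, 25.1 and 58.15 against 2.60, 2.98 and 3.41. *Edem1* was higher too, at 72.0, 77.2 and 62.0 against 38.3, 39.9 and 37.9. T cell markers summed to at most 7.77 CPM in resting-like, GC-like, activated-like, IFN-like and marginal zone-like cells, with *Cd40lg*, the T cell ligand of CD40, at 0 in the non-dividing GC-like cells.

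**Figure D1:**
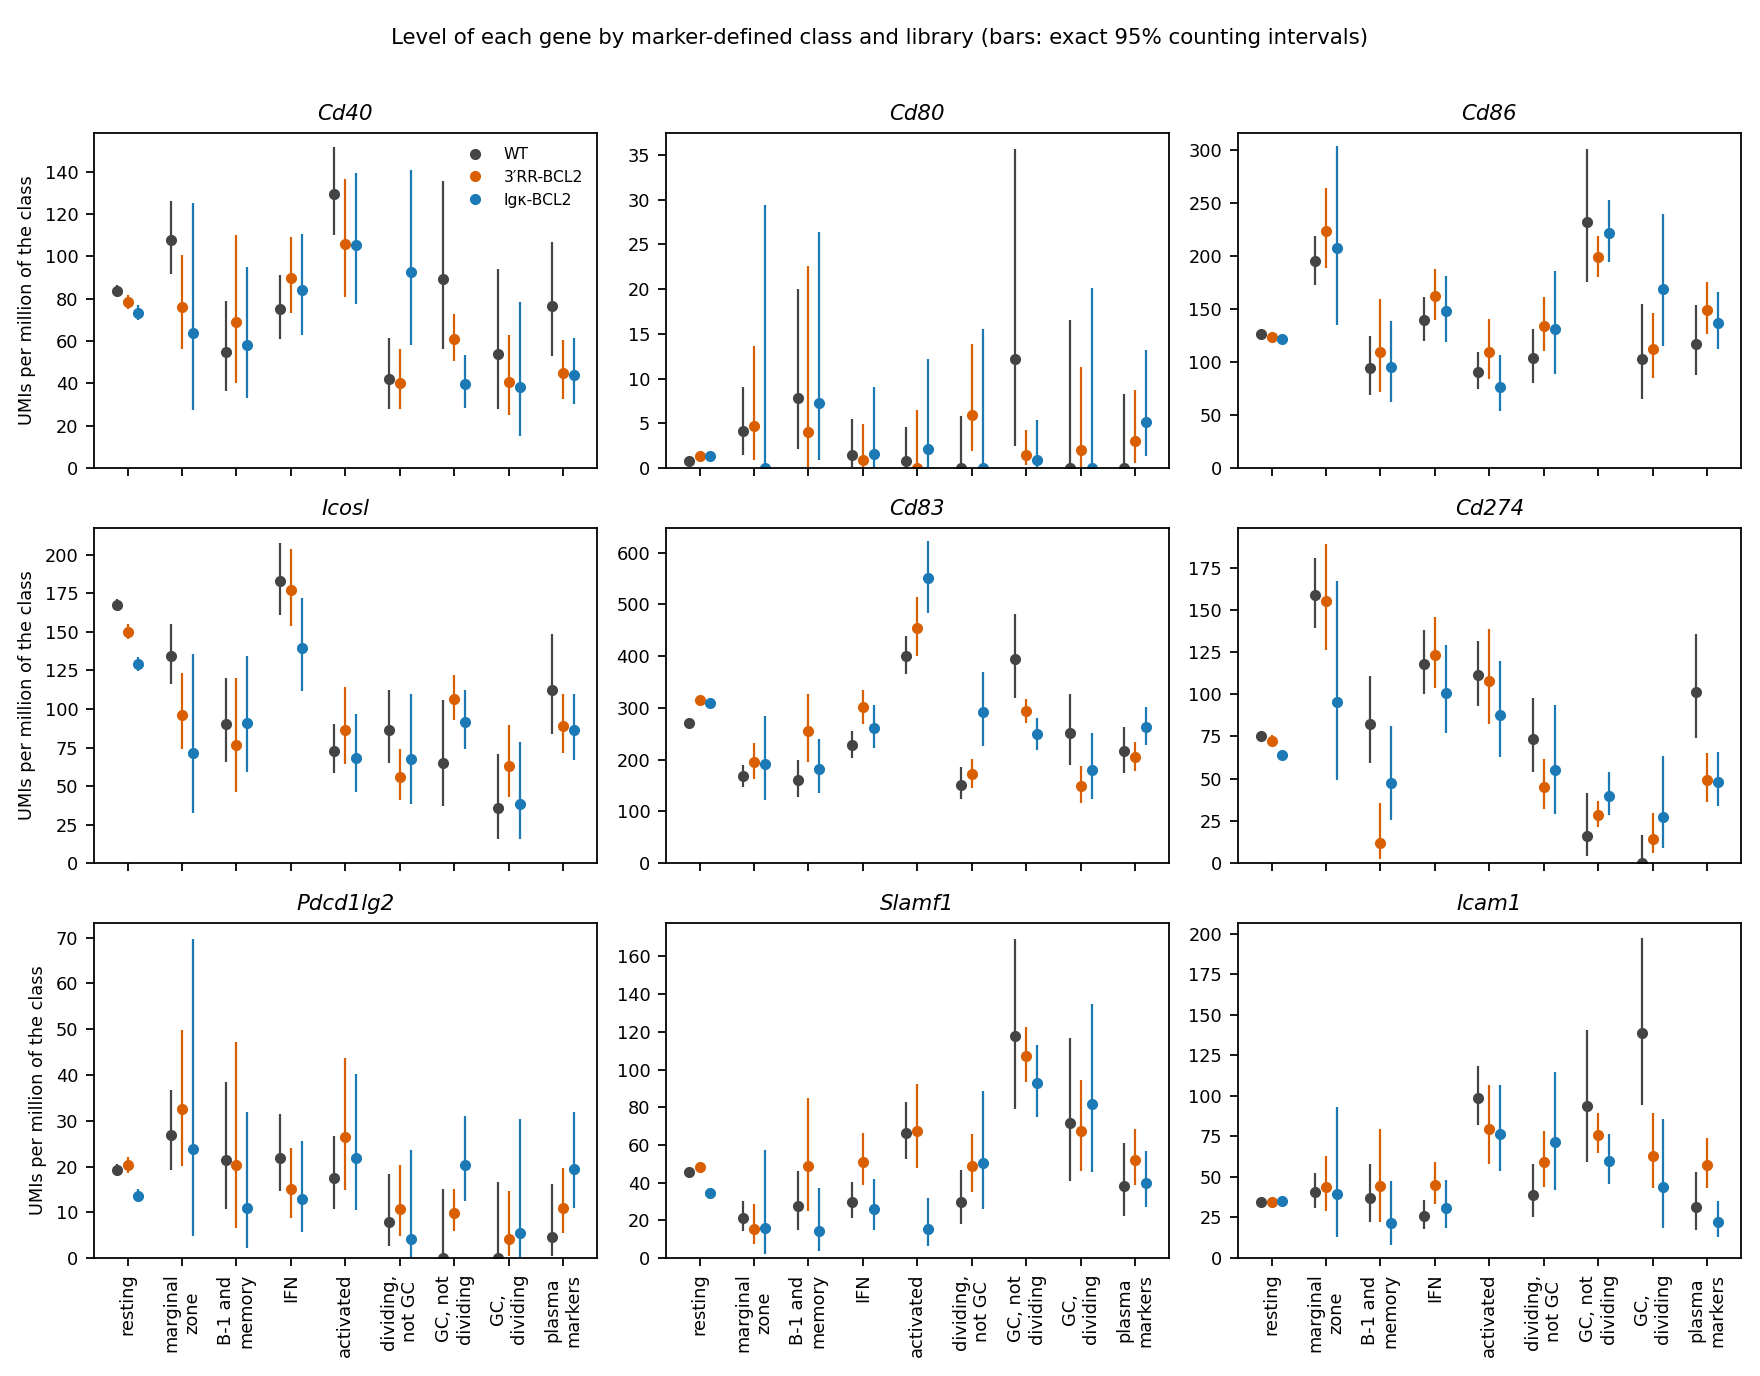
Level of each of the 9 genes in CPM (vertical axes, each from 0) by marker-defined class (horizontal axis) in WT (grey), 3′RR-BCL2 (orange) and Igκ-BCL2 (blue). Points are levels of 1 library and bars exact 95% Poisson intervals. *Cd83* was highest in activated-like cells of the mutants, at 454 and 550.1, and *Slamf1* was highest in non-dividing GC-like cells, at 118, 107 and 92.6.

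Non-dividing GC-like cells held more *Cd86*, *Slamf1* and *Icam1* than resting-like cells in each of the 3 libraries, while *Icosl*, *Cd274* and, in the mutants, *Cd40* were lower. *Cd83* was higher in the GC of WT, from 23 cells and by less than 1.5-fold, and not in that of the mutants. The 3 genes called higher were 3 of 6 measurable in WT and 3 of 8 in each mutant. Of all measurable genes, 28.1% (WT), 15.6% (3′RR-*BCL2*) and 16.7% (Igκ-*BCL2*) were called higher. In WT, *Slamf1* and *Icam1* passed the minimum only through their UMIs in the GC (29 and 23). These calls and the number of measurable genes in WT are thus not independent of the rise. Those called lower were *Icosl* in WT (19.6% of all genes), *Cd274* and *Pdcd1lg2* in 3′RR-*BCL2* (14% of all genes), and *Cd40* and *Cd274* in Igκ-*BCL2* (13.6% of all genes). *Cd80* was under the minimum in all libraries, and *Cd274* and *Pdcd1lg2* in WT. With WT GC cells chosen by a stricter marker limit (17 cells), 0 of the 3 genes were called higher in WT, against 3 here. *Icam1* then fell under the minimum of UMIs with a log2 ratio of 1.03 (0.08 to 1.84), and those of *Cd86* and *Slamf1* were 0.36 and 0.43, with intervals that held 0.

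*Cd86*, the B7 ligand of CD28 that is induced when B cells are activated, was at 126, 124 and 122 CPM in resting-like cells, and at 232, 199 and 222 in non-dividing GC-like cells. The rise was thus 1.83-fold (1.39 to 2.38), 1.60-fold (1.44 to 1.78) and 1.82-fold (1.58 to 2.08), and every interval overlapped the others. In dividing GC-like cells, *Cd86* was at 103, 112 and 169, and the interval of its ratio to resting-like cells held 1 in each library. After each cell was thinned to 2000 UMIs, *Cd86* had a UMI in 39.1%, 32.3% and 36.1% of non-dividing GC-like cells and in 20.9%, 19.8% and 19.4% of resting-like cells. T cells held one in 1 of 18, 3 of 15 and 4 of 19 cells (5.56%, 20% and 21.1%). The resting-like shares of the mutants were thus no higher than those of T cells, which were too few to set a firm background.

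*Slamf1*, a self-binding adhesion receptor that signals through SAP, was higher in the GC of each library too. Its level was 45.5, 48.1 and 34.4 CPM in resting-like cells, and 118, 107 and 92.6 in non-dividing GC-like cells. The folds were 2.59 (1.73 to 3.74), 2.23 (1.92 to 2.58) and 2.69 (2.15 to 3.32). The GC level was more than that of every other class of at least 50 cells in both mutants. In dividing GC-like cells it was 71.7, 67.3 and 81.7, above resting-like cells in each library and below non-dividing GC-like cells, although the interval of the ratio to resting-like cells left out 1 in Igκ-*BCL2* only.

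*Icam1*, the ligand of the integrin LFA-1, was at 34.6, 34.4 and 35.2 CPM in resting-like cells, the closest agreement among libraries of the genes with over 20 CPM. In non-dividing GC-like cells it rose to 93.6, 76.2 and 59.8, which was 2.71-fold (1.71 to 4.08), 2.21-fold (1.85 to 2.63) and 1.70-fold (1.29 to 2.20) higher. After thinning, *Icam1* had a UMI in 17.4%, 15.6% and 7.64% of these cells, against 6.03%, 5.89% and 5.93% of resting-like cells. In Igκ-*BCL2* the interval of the GC share (3.87% to 13.3%) held the resting-like share. The few T cells of WT and 3′RR-*BCL2* had higher shares, 22.2% and 20%. Dividing GC-like cells held 139, 63.2 and 43.6 CPM, from 31, 31 and 8 UMIs. The WT level was thus the highest of the 3 in both GC classes, and the ratio to WT in dividing cells was 0.455 (0.267 to 0.774) for the transgenic and 0.314 (0.125 to 0.697) for the knock-in library.

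*Cd83*, a membrane protein of activated B cells and dendritic cells that is used as a light zone marker, was at 271, 315 and 310.0 CPM in resting-like cells. In non-dividing GC-like cells, it was at 395, 293 and 249. WT was thus the lowest library among resting-like cells and the highest in the GC. The fold of GC-like over resting-like cells was 1.46 (1.18 to 1.78) in WT, whereas it was 0.932 (0.856 to 1.01) and 0.803 (0.706 to 0.909) in the mutants. Under 8 alternatives, the log2 ratio of WT kept its direction but ranged from 0.14 to 0.56, and was past 1.5-fold in 0 of them. Dividing GC-like cells of each library held less *Cd83* than non-dividing ones, at 251, 149 and 180.

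The ICOS ligand gene *Icosl* was at 168, 150.0 and 129 CPM in resting-like cells and fell to 65.1, 107 and 91.6 in non-dividing GC-like cells. The ratio was 0.388 (0.222 to 0.630) in WT, and 0.711 in 3′RR-*BCL2* (0.617 to 0.816) as well as in Igκ-*BCL2* (0.573 to 0.872). Dividing GC-like cells held still less, 35.9, 63.2 and 38.1, from 8, 31 and 7 UMIs. All values in the GC were thus below the resting-like level of the same library.

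*Cd274*, which encodes PD-L1, was at 75.4, 72.5 and 64.0 CPM in resting-like cells. In non-dividing GC-like cells it was at 16.3 (4 UMIs), 28.5 and 39.6, with ratios in the mutants of 0.393 (0.297 to 0.511) and 0.618 (0.442 to 0.842). Dividing GC-like cells of WT had no *Cd274* UMI, where 3 UMIs would be 13.4 CPM, and those of the mutants held 14.3 and 27.2 (7 and 5 UMIs). *Pdcd1lg2*, which encodes PD-L2, went from 19.3, 20.3 and 13.6 in resting-like cells to no UMI in WT (3 UMIs would be 12.2 CPM), and 9.83 and 20.3 in the mutants. In the 3′RR-*BCL2* GC the *Pdcd1lg2* ratio was 0.484 (0.293 to 0.755), and the Igκ-*BCL2* GC held 2.06 times (1.06 to 4.01) the level of the 3′RR-*BCL2* GC, from 21 and 20 UMIs. Thus, the PD-L1 gene was below resting-like cells in the GC of each mutant, and the PD-L2 gene in that of 3′RR-*BCL2*.

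*Cd40* itself was at 83.8, 78.4 and 73.5 CPM in resting-like cells, and at 89.5, 60.9 and 39.6 in non-dividing GC-like cells. The ratio of the GC to resting-like cells was 1.07 (0.669 to 1.62) in WT, which left no difference detectable, whereas the ratio was 0.777 (0.643 to 0.932) and 0.538 (0.385 to 0.733) in the mutants. In the GC, Igκ-*BCL2* held 0.442 times (0.257 to 0.779) the WT level and 0.649 times (0.444 to 0.931) that of 3′RR-*BCL2*, from 41 UMIs against 22 and 124. *Cd80*, the other B7 ligand, which in mouse B cells marks memory cells, was scarce everywhere, at 0.800, 1.33 and 1.35 CPM in resting-like cells (36, 33 and 33 UMIs) and 3, 3 and 1 UMIs in non-dividing GC-like cells. It was at 7.83, 4.05 and 7.30 in cells with B-1 and memory markers, from 4, 1 and 2 UMIs, which is too few to order the classes.

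**Figure D2:**
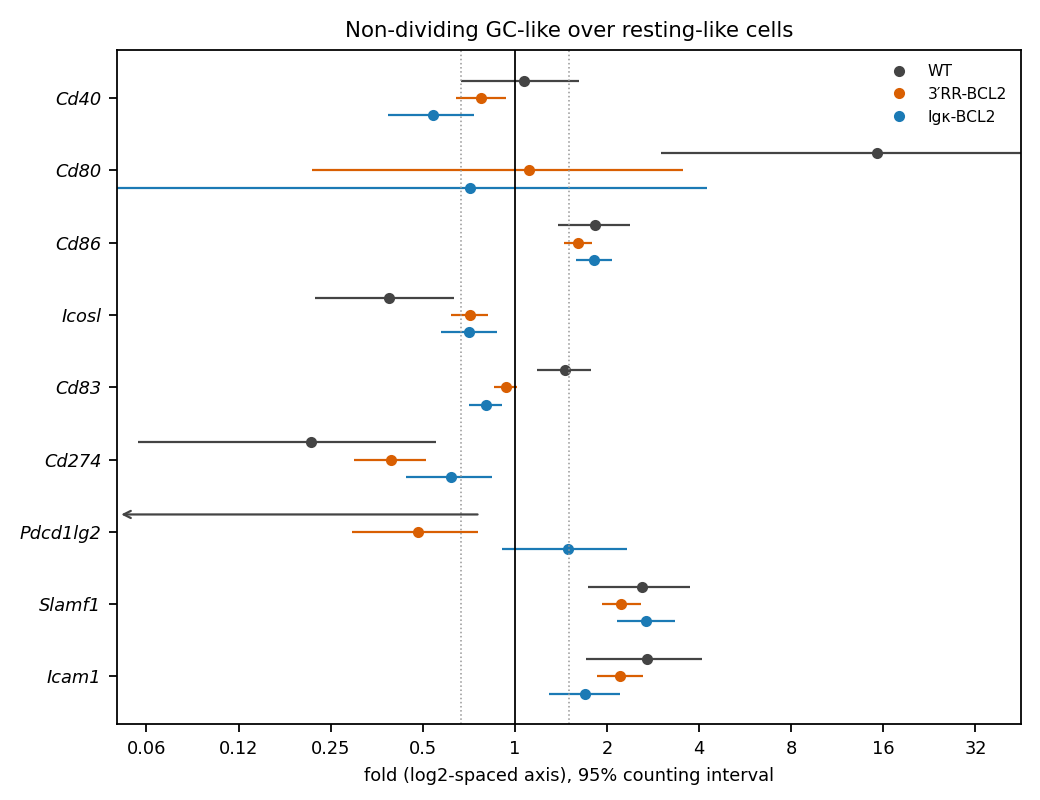
Fold of non-dividing GC-like over resting-like cells for the 9 genes (horizontal axis, log2-spaced) in WT (grey), 3′RR-BCL2 (orange) and Igκ-BCL2 (blue), with 95% counting intervals as bars. Bars that reach an edge go on past it, the arrow marks a level of 0, and dotted lines mark 1.5-fold. *Cd86*, *Slamf1* and *Icam1* lie right of 1 in each library, from 1.60-fold to 2.71-fold, and *Icosl* lies left of it.

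Activated-like cells were marked by more *Icam1* and *Cd83* and less *Icosl* than resting-like cells in each library. *Icam1* was at 98.8, 79.6 and 76.7 CPM, 2.86-fold (2.35 to 3.45), 2.31-fold (1.67 to 3.12) and 2.18-fold (1.51 to 3.05) above resting-like cells. *Cd83* was at 401, 454 and 550.1, and its folds were 1.48 (1.35 to 1.62), 1.44 (1.27 to 1.64) and 1.77 (1.56 to 2.01). *Icosl*, at 73.0, 86.6 and 67.9, was at 0.435, 0.578 and 0.527 times the resting-like level. *Cd40* was higher in each library as well, at 129, 106 and 105, by 1.55-fold, 1.35-fold and 1.43-fold. *Cd86* did not follow, since it was at 90.5, 109.6 and 76.7, with ratios of 0.716 in WT and 0.628 in Igκ-*BCL2* whose intervals left out 1. Called higher were *Cd40* and *Icam1* in WT (19.1% of all genes), *Icam1* in 3′RR-*BCL2* (22.4% of all genes) and *Cd83* and *Icam1* in Igκ-*BCL2* (20.8% of all genes). Called lower was *Icosl* in WT (18.1% of all genes), in 3′RR-*BCL2* (19.8% of all genes) and, with *Cd86*, in Igκ-*BCL2* (20% of all genes). These counts are thus near the background of all genes. In both mutants, *Icam1* passed the minimum only through its UMIs in activated-like cells. Compared with non-dividing GC-like cells, activated-like cells thus shared high *Icam1* and low *Icosl*, and differed in *Cd86* and *Cd274*. *Cd274* was at 111, 108 and 87.7 in activated-like cells, above the 16.3, 28.5 and 39.6 of the GC. *Slamf1* was at 66.4 and 67.2 in WT and 3′RR-*BCL2* and at 15.3 in Igκ-*BCL2*, from 7 UMIs in 63 cells.

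In IFN-like cells, *Cd274* was the only one of the 9 genes called higher than in resting-like cells, and it was called in each library. Its level was 118, 124 and 101 CPM, which was 1.57-fold (1.33 to 1.84), 1.70-fold (1.42 to 2.02) and 1.57-fold (1.20 to 2.03) above resting-like cells, where 4.34% (WT), 5.14% (3′RR-*BCL2*) and 6.38% (Igκ-*BCL2*) of all genes were called higher. *Slamf1* was called lower in WT (2.7% of all genes), at 29.5 CPM, and was at 51.2 and 26.0 in the mutants. *Lyz2*, a myeloid gene, stood at 553 and 293 CPM in the IFN-like cells of WT and 3′RR-*BCL2* and at 0 in Igκ-*BCL2*, while the *C1q* genes were at 0. Without cells holding any *Lyz2*, *Cd3* or *C1q* UMI, which left 216, 185 and 120 cells, the *Cd274* fold was 1.60, 1.72 and 1.56. *Icosl* was at 183, 177 and 139.5 and *Cd86* at 139, 162 and 148, and both exceeded resting-like cells in 3′RR-*BCL2*, by 1.18-fold (1.02 to 1.36) and 1.31-fold (1.12 to 1.52).

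Marginal zone-like cells held the most *Cd274* of all classes with at least 50 cells in WT and 3′RR-*BCL2*, 159 and 155 CPM, 2.11-fold (1.84 to 2.41) and 2.14-fold (1.74 to 2.62) above resting-like cells. They also held more *Cd86*, at 195, 224 and 207, and less *Cd83*, at 168, 196 and 191, with *Cd83* ratios of 0.620 (0.544 to 0.704), 0.622 (0.518 to 0.742) and 0.616 (0.394 to 0.917). Among the classes of at least 50 cells, *Slamf1* was lowest in this one in WT and 3′RR-*BCL2*, at 21.4 and 15.5. Called higher were *Cd86* and *Cd274* in WT (6.5% of all genes), both and *Pdcd1lg2* in 3′RR-*BCL2* (7.53% of all genes), and *Cd86* in Igκ-*BCL2* (11.8% of all genes), where 2 of the 9 genes could be measured in 16 cells. The *Pdcd1lg2* call rested on 21 UMIs, and its log2 ratio went from 0.68 to -0.997 with a stricter marker limit. This gene in 3′RR-*BCL2* and *Cd86* in Igκ-*BCL2* passed the minimum only through their marginal zone-like UMIs (21 and 26). Called lower were *Cd83* and *Slamf1* in WT (6.99% of all genes), both and *Icosl* in 3′RR-*BCL2* (10.3% of all genes), and *Cd83* in Igκ-*BCL2* (13.1% of all genes).

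In cells with B-1 and memory markers and in dividing cells outside the GC, the levels of *Icosl* and *Cd83* stood below those of resting-like cells, although not every difference exceeded counting error. *Icosl* was at 90.01, 76.9 and 91.2 CPM in the former and at 86.1, 55.7 and 67.5 in the latter, and *Cd83* at 160.5, 255 and 182 in the former and 152, 172 and 291 in the latter. The interval of the ratio to resting-like cells held 1 for *Cd83* of 3′RR-*BCL2* (0.622 to 1.04) and *Icosl* of Igκ-*BCL2* (0.457 to 1.05) in B-1 and memory cells, and for *Cd83* of Igκ-*BCL2* (0.730 to 1.19) in dividing cells. Called lower in B-1 and memory cells were *Cd40*, *Icosl*, *Cd83* and *Slamf1* in WT (3.36% of all genes), *Icosl* in 3′RR-*BCL2* (5.31% of all genes) and *Cd83* in Igκ-*BCL2* (6.86% of all genes). Called lower in dividing cells outside the GC were *Cd40*, *Icosl*, *Cd83* and *Slamf1* in WT (14.5% of all genes), *Cd40*, *Icosl*, *Cd83* and *Cd274* in 3′RR-*BCL2* (11.8% of all genes) and *Icosl* in Igκ-*BCL2* (11% of all genes), and *Icam1* was called higher in 3′RR-*BCL2* (20% of all genes). The intervals of both *Slamf1* calls in WT held 1, at 0.329 to 1.01 in B-1 and memory cells and 0.393 to 1.02 in dividing cells. In the latter, *Cd40* was at 42.3 and 40.3 in WT and 3′RR-*BCL2*, and at 92.9 in Igκ-*BCL2* (22 UMIs in 36 cells). *Icam1* was at 39.1, 59.3 and 71.8 there, and its fold over resting-like cells was 1.72 (1.27 to 2.29) in 3′RR-*BCL2* and 2.04 (1.18 to 3.28, from 17 UMIs) in Igκ-*BCL2*.

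Next, each mutant was compared with WT in resting-like cells, the largest class. The levels of the 9 genes differed by little, and the differences were mostly in Igκ-*BCL2*. *Icosl* was at 168, 150.0 and 129 CPM, so that the mutants held 0.894 (0.859 to 0.930) and 0.769 (0.737 to 0.802) times the WT level. *Cd83* was 1.16-fold (1.13 to 1.20) and 1.15-fold (1.11 to 1.18) higher in the mutants. *Slamf1* (0.757, 0.698 to 0.821), *Pdcd1lg2* (0.706, 0.620 to 0.802) and *Cd274* (0.849, 0.799 to 0.902) were lower than WT in Igκ-*BCL2*, and their intervals held 1 in 3′RR-*BCL2*. *Cd40* was at 0.936 (0.886 to 0.989) and 0.877 (0.829 to 0.928) times WT, while for *Cd86* and *Icam1* the intervals held 1 in both mutants. *Cd80* was called in each mutant, at 1.66-fold and 1.69-fold from 33 UMIs, beside 3.38% (3′RR-*BCL2*) and 8.02% (Igκ-*BCL2*) of all genes called higher. It passed the minimum only through the UMIs seen in the mutants. The intervals of its level overlapped, at 0.560 to 1.11 CPM in WT and 0.914 to 1.86 and 0.932 to 1.90 in the mutants. None of the other 8 genes reached 1.5-fold, and none was called lower, as 3.4% and 3.98% of all genes were. These intervals cover counting error, and how far animals of 1 genotype differ cannot be seen with 1 library each.

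**Figure D3:**
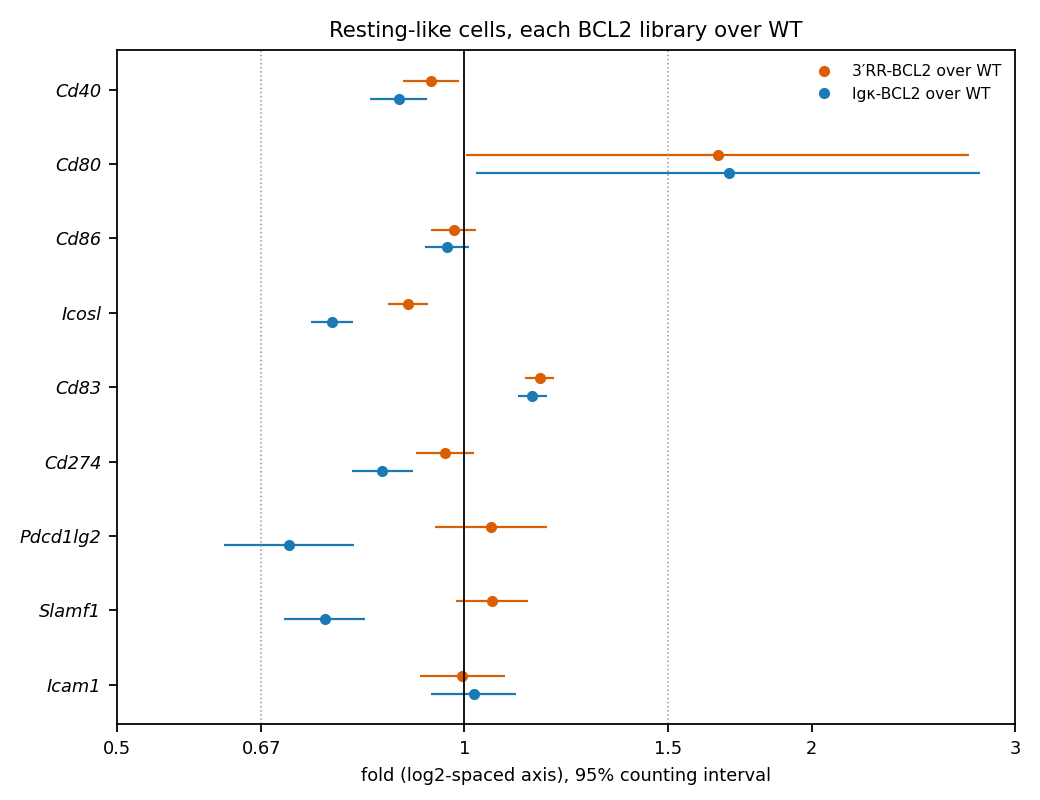
Fold of 3′RR-BCL2 (orange) and of Igκ-BCL2 (blue) over WT in resting-like cells for the 9 genes (horizontal axis, log2-spaced), with 95% counting intervals as bars and dotted lines at 1.5-fold. *Icosl* lies left of 1 in both mutants (0.894 and 0.769) and *Cd83* right of it (1.16 and 1.15), within the dotted lines.

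Immediate early genes, which are induced within minutes by stimulation and also by handling of cells, differed between the WT and mutant libraries. The 12 genes summed to 5920, 7997 and 7906 CPM in resting-like cells, and 8 heat shock genes to 1479, 4414 and 6772. With 1 library per genotype, genotype and handling of the cells cannot be told apart in these sums. Resting-like cells were therefore compared within 3 classes of immediate early UMIs, a step added after the data were seen. *Cd83* rose with the class in each library, from 221 over 280 to 308 CPM in WT. It went from 252 over 317 to 356 in the transgenic, and from 247 over 304 to 338 in the knock-in library. Within the 3 classes, *Cd83* of 3′RR-*BCL2* was at 1.14, 1.13 and 1.16 times WT and that of Igκ-*BCL2* at 1.12, 1.09 and 1.10 times. Both intervals held 1 in the class with the fewest immediate early UMIs (0.918 to 1.40 and 0.921 to 1.35) and left it out in the others. *Icosl* of Igκ-*BCL2* was at 0.82, 0.80 and 0.67 times WT, and its interval held 1 in the lowest class (0.640 to 1.05). For 3′RR-*BCL2* the *Icosl* ratios were 1.13, 0.95 and 0.82, of which the last left out 1 (0.743 to 0.911). The part of heat shock genes in these differences was not tested.

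**Figure D4:**
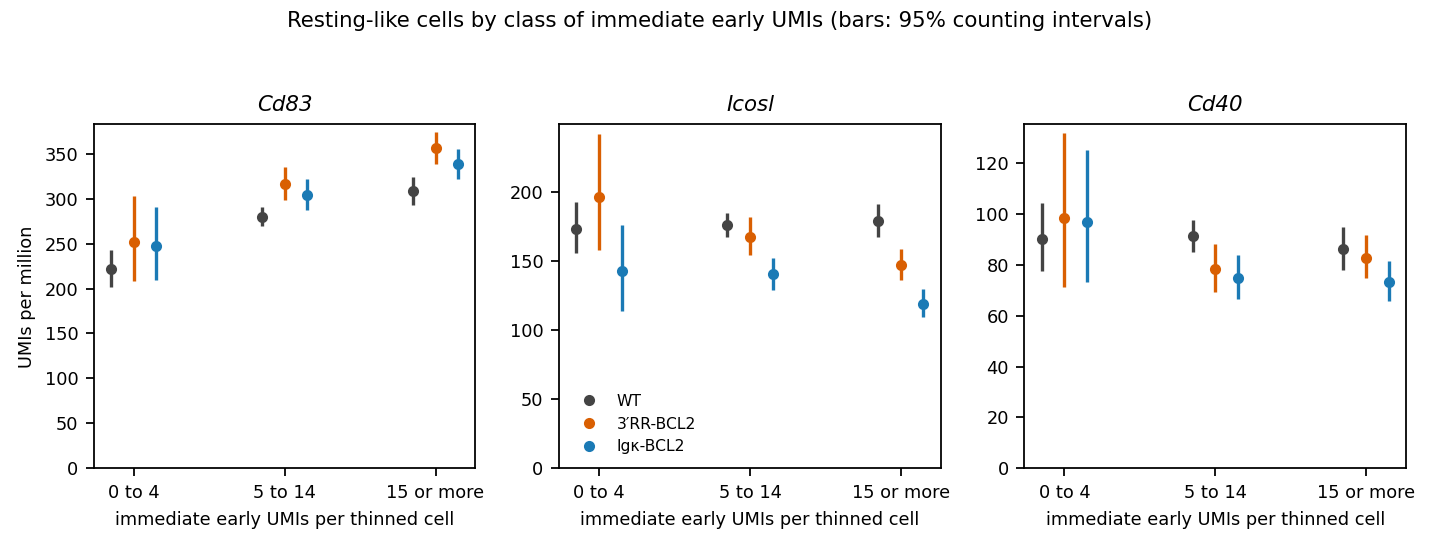
Levels of *Cd83*, *Icosl* and *Cd40* in CPM (vertical axes, from 0) in resting-like cells with 0 to 4, 5 to 14 and 15 or more immediate early UMIs after thinning (horizontal axis), in WT (grey), 3′RR-BCL2 (orange) and Igκ-BCL2 (blue). Points are levels of 1 library with exact 95% Poisson intervals, and *Cd83* climbs from 221 to 308 in WT and from 252 to 356 in 3′RR-BCL2.

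In non-dividing GC-like cells, the comparison with WT rested on the 23 WT cells. *Icosl* was called higher than WT in 3′RR-*BCL2* (10.1% of all genes), and 0 of 6 measurable genes were called lower (11.4% of all genes). In Igκ-*BCL2*, *Cd40*, *Cd83* and *Icam1* were called lower (15.2% of all genes), and 0 were called higher (14.9% of all genes). The *Cd83* level was 0.744 (0.599 to 0.931) and 0.631 (0.498 to 0.805) times that of WT in the mutants. Under alternatives, the log2 of these ratios came as close to WT as -0.08 and -0.14. Of these calls, *Icosl* passed the minimum only through its level in 3′RR-*BCL2*, and *Cd40* and *Icam1* only through WT (22 and 23 UMIs). Between the mutants, which had more GC cells, *Pdcd1lg2* was called higher (7.77% of all genes) and *Cd40* lower (3.74% of all genes) in Igκ-*BCL2*. There, *Cd83* was at 0.848 (0.730 to 0.983) times the level of 3′RR-*BCL2*. *Pdcd1lg2* passed the minimum only through its 21 UMIs in Igκ-*BCL2*.

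The other classes were compared with WT in the same way. Among activated-like cells, *Slamf1* was called lower in Igκ-*BCL2*, at 0.231 times WT (0.0900 to 0.498, 8.75% of all genes called lower). Among IFN-like cells of 3′RR-*BCL2*, *Slamf1* and *Icam1* were called higher, by 1.73-fold (1.14 to 2.67) and 1.75-fold (1.11 to 2.78), as were 5.5% of all genes. *Cd274* of cells with B-1 and memory markers was at 12.1 CPM in 3′RR-*BCL2* against 82.2 in WT, from 3 and 42 UMIs (11.3% of all genes called lower). In Igκ-*BCL2* it was called lower too, at 0.577 times WT with an interval that held 1 (0.284 to 1.10, 10.8% of all genes), and *Cd83* of these cells was called higher in 3′RR-*BCL2*, by 1.59-fold (1.13 to 2.23, 7.23% of all genes). In dividing cells outside the GC, *Icosl* and *Cd274* were called lower in 3′RR-*BCL2*, at 0.647 (0.429 to 0.972) and 0.612 times WT (0.388 to 0.959, 8.42% of all genes). *Slamf1* and *Icam1* were called higher there (13.2% of all genes), with intervals that held 1 (0.927 to 2.98 and 0.919 to 2.55). In Igκ-*BCL2*, the 36 dividing cells had *Cd40* and *Cd83* called higher, by 2.20-fold (1.19 to 4.01) and 1.92-fold (1.39 to 2.64), beside 17.5% of all genes. Here *Cd40* passed the minimum only through the 22 UMIs seen in Igκ-*BCL2*. In dividing GC-like cells, *Icam1* was called lower in Igκ-*BCL2* (11.6% of all genes) and, with *Cd83* at 0.593 times WT (0.413 to 0.856), in 3′RR-*BCL2* (8.13% of all genes). *Cd86* was called higher in Igκ-*BCL2*, with an interval that held 1 (0.925 to 2.94, 16.1% of all genes), and passed the minimum only through its 31 UMIs there. No other gene of the 9 was called against WT in these classes or in marginal zone-like cells.

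GC cells that have just received T cell help are known to express *Myc*, so GC-like cells with and without a *Myc* UMI were compared after thinning. There were 6, 33 and 8 cells with and 42, 305 and 158 without one. No interval of the 9 genes left out 1 in any library. *Cd86* of 3′RR-*BCL2* was at 273 CPM with and 184 without *Myc*, a 1.49-fold difference (0.849 to 2.46). With cells thinned to 4000 UMIs, which gave 91 cells with and 403 without *Myc* in 3′RR-*BCL2*, *Cd83* was at 379 with and 239 without, 1.59-fold (1.30 to 1.93) higher, and *Pdcd1lg2* higher with *Myc* by 3.94-fold (1.32 to 11.5, from 8 and 9 UMIs). A difference was thus not detectable for any of the 9 genes at the depth of 2000 UMIs.

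Of 18 other costimulation and adhesion genes, 8, 12 and 11 could be measured between non-dividing GC-like and resting-like cells in the 3 libraries. In 3′RR-*BCL2*, 3 were higher and 9 lower, with a median log2 ratio of -0.30 against 0.06 over all genes, and the medians of WT and Igκ-*BCL2* were -0.28 and -0.06 against 0.16 and 0.06. *Slamf7*, another SLAM receptor, was at 162 CPM in the 3′RR-*BCL2* GC against 54.2 in resting-like cells (log2 1.58), and *Sema4d*, a semaphorin that binds CD72 and plexins, at 179.9 against 107 (0.75). The SLAM family moved apart, since *Cd84* was at 46.7 against 139.5 (-1.58), while *Vsir*, which encodes the inhibitory ligand VISTA, was at 4.91 against 10.7 (-1.13). *Slamf7* and *Sema4d* had log2 ratios of 1.30 and 0.95 in WT and 1.52 and 1.23 in Igκ-*BCL2*, and *Cd84* -1.98 and -2.03.

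Of 18 genes of CD40 and NF-κB signalling, 16 were measurable in 3′RR-*BCL2*, of which 4 were higher and 12 lower in the GC, with a median log2 ratio of -0.37. WT (7 genes) had a median of -0.32 and Igκ-*BCL2* (16 genes) of -0.22. *Traf1*, an adaptor of TNF receptors that is itself induced by NF-κB, was at 77.6 CPM in the GC of 3′RR-*BCL2* against 46.9 (log2 0.73), and at a log2 ratio of 1.55 in Igκ-*BCL2*. *Traf5*, another adaptor of CD40, was at 153 against 110.2 (0.47). *Traf3*, which restrains CD40 signalling, was at 31.0 against 53.1 (-0.78) and *Birc3*, an inhibitor of apoptosis induced by NF-κB, at 84.0 against 141 (-0.75). The comparison with WT in the GC rested on 23 WT cells, where 1 UMI is 4.07 CPM. Of all measurable genes, 10.1% were called higher and 11.4% lower in 3′RR-*BCL2*, and 14.9% and 15.2% in Igκ-*BCL2*. The genes of both lists that stood lowest there in the mutants were *Cd72*, an inhibitory coreceptor, at 192 and 205 against 484 (log2 -1.34 and -1.24), and *Bcl2a1b*, an NF-κB-induced survival gene, at 69.8 and 64.6 against 183 (-1.39 and -1.50). *Slamf6* was higher in both, at 87.0 and 93.6 against 44.7 (0.96 and 1.06), as were *Btla*, at 158 and 157 against 102, and *Traf5*, at 153 and 134 against 89.5. Next lowest were *Cd48* (-0.46 and -0.71), *Nfkb1* in 3′RR-*BCL2* (-0.48) and *Nfkbia* in Igκ-*BCL2* (-0.53), and *Tnfaip3* was at 0.23 and 0.07.

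**Figure D5:**
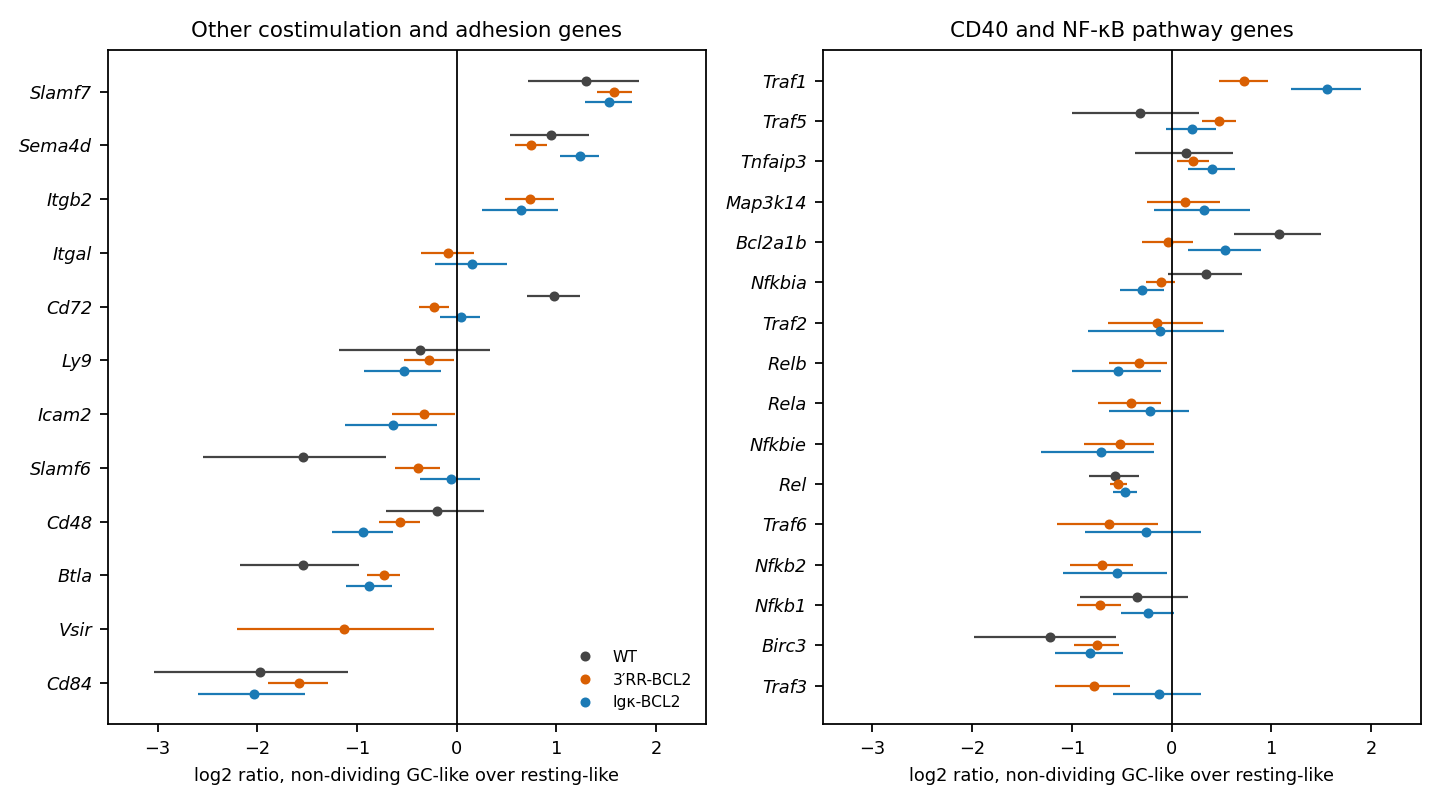
Log2 ratio of non-dividing GC-like over resting-like cells (horizontal axes) for other costimulation and adhesion genes (left) and CD40 and NF-κB genes (right) that passed the minimum, in WT (grey), 3′RR-BCL2 (orange) and Igκ-BCL2 (blue), with 95% counting intervals as bars. *Slamf7* is at the top (1.58 in 3′RR-BCL2) and *Cd84* at the bottom (-1.58) of the left panel, and most points of the right panel lie left of 0.

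Over the 20 classes of at least 50 cells, which share libraries and so are not independent, the log2 level of *Cd40* went most closely with *Nfkbie* (r = 0.90), *Limk1* (0.89) and *Mia2* (0.88). *Cd274* went with *Gypc* (0.95), *Rasgef1b* (0.94) and *Cnpy3* (0.93), and *Cd83* with *Il4i1* (0.91), *Pisd* (0.85) and *Srebf2* (0.85). The closest to *Cd86* were *Ccnl1* (0.88), *Blnk* (0.85) and *Lax1* (0.84), to *Icosl* *Pnrc1* (0.86), *Zcchc7* (0.85) and *Trim26* (0.85), and to *Icam1* *Cdc37* (0.89), *Bzw2* (0.89) and *Caprin1* (0.88). *Pdcd1lg2* went with *Tyw5* (0.86), *Pgm3* (0.85) and *Arfgef1* (0.82), and *Slamf1* with *Prrc2a* (0.79), *Cwc27* (0.78) and *5330438D12Rik* (0.78). *Cd80* was not ranked for want of UMIs. Among the 9 genes, the highest values were those of *Cd40* with *Cd274* (0.73) and with *Cd83* (0.63), and the lowest those of *Cd274* with *Slamf1* (-0.60) and *Icosl* with *Icam1* (-0.58).

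Per cell, these transcripts were sparse. At 2000 UMIs, *Cd83* had a UMI in 37.9%, 42.3% and 39.7% of resting-like cells, with at most 11, 10 and 8 UMIs in 1 cell, and *Cd40* in 15.9%, 14.7% and 13.6%. In 18, 15 and 19 T cells, which had at least 2 UMIs of *Cd3* genes and 2000 UMIs in all, were left out of all classes and are counted here whether or not they passed the other cell limits, *Cd40* had a UMI in 0%, 6.67% and 5.26%, and *Cd83* in 33.3%, 26.7% and 21.1%. For *Icosl*, the shares of resting-like cells (28.3%, 25.7% and 21.1%) were above those of T cells in WT and 3′RR-*BCL2* (2 of 18 and 3 of 15 cells) and below in Igκ-*BCL2* (6 of 19 cells). The resting-like shares of *Icam1* (6.03%, 5.89% and 5.93%) were below those of T cells in WT and 3′RR-*BCL2* (4 of 18 and 3 of 15 cells, against 0 of 19), and that of *Cd274* in Igκ-*BCL2* (10.1%, against 3 of 19 cells). The T cells were few, and whether they held such RNA of their own or from B cells in doublets was not tested, so they set no firm background. These shares, that of *Icosl* in Igκ-*BCL2* and those of *Cd86* in the mutants are therefore not read as expression in each cell. The median depths before thinning were 4955.5, 5113 and 4724 UMIs in resting-like cells and 4969.5, 6135 and 7808 in the T cells.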

How the data were processed

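Spleen cells of 3 mouse libraries (WT, 3′RR-*BCL2*, Igκ-*BCL2*) were profiled with 10x Genomics 3′ chemistry. The deposited matrices hold raw UMI counts, which the authors made with Cell Ranger 6.1.1, and the submitters' processing notes name the builds mm10 and hg38. The gene rows are mouse genes only, so human *BCL2* was not analysed here. Coordinates are those of GRCm38, where 32235 of 32285 gene IDs were found.

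The limits for cells were 800 to 4500 detected genes, 20000 UMIs, a mitochondrial share of up to 8%, a share of ribosomal protein genes of 10% or more, and fewer than 2 UMIs of *Cd3* and of *C1q* genes. Each was thinned once to 2000 UMIs, which left out 178, 165 and 135 shallower cells, and 9754, 6396 and 6108 remained, with median depths of 5073, 5362.5 and 4887.5 UMIs. A cell reached a class at the smallest number of its markers that under 1% of cells would hold if markers were found independently (3 of 9 for the GC, 5 of 12 for activated, 3 of 12 for IFN, 4 of 9 for marginal zone). Doublets were neither called nor removed. Unthinned counts were summed per class and library, and intervals are exact for Poisson counts. The 9 genes and all lists were chosen with earlier results of these data known. Beside the 9 genes, the text names the 2 highest and 2 lowest genes of each pathway list in 3′RR-*BCL2* GC over resting cells and in each mutant over WT in GC cells, and the 3 genes most like each of the 9 by Pearson's r of log2 levels (1 added, at least 500 UMIs). On simulated data for the 3′RR-*BCL2* GC over resting comparison (7561 genes), intervals held the true fold for 95.5% of unchanged genes. They held it for 94% of genes set to 2-fold and 94% of those set to 3-fold. The simulated counts were Poisson, as the intervals assume. This therefore checks the computation only and cannot show whether the intervals cover the spread among cells or animals. Alternatives changed the marker limit, the thinning depth, the cell filters, the minimum UMIs and the denominator. Python 3.11.15, numpy 2.4.6, scipy 1.17.1, pandas 2.3.3 and matplotlib 3.10.9 were used.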

Additional observations from a re-analysis of the deposited data

Results flagged for a closer look

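In 7 cases, the step of a gene from resting-like cells to another class went opposite ways in a mutant and in WT, with an interval of the difference that left out 0, of 68 differences computed. With 1 library per genotype these differences were not tested, and each is given on the log2 scale as mutant minus WT. *Cd83* in non-dividing GC-like cells differed by -0.64 (-0.96 to -0.33) in 3′RR-*BCL2*, whose step was -0.10 against 0.54 in WT. In Igκ-*BCL2*, the *Cd83* difference was -0.86 (-1.20 to -0.52), with a step of -0.32. *Cd40* in non-dividing GC-like cells of Igκ-*BCL2* differed by -0.99 (-1.74 to -0.24), with steps of -0.89 and 0.10. The difference of *Cd80* there, -4.42, rested on 1 UMI in Igκ-*BCL2* and 3 in WT. *Slamf1* in activated-like cells of Igκ-*BCL2* differed by -1.71 (-2.83 to -0.59), from 7 and 80 UMIs. In IFN-like cells of 3′RR-*BCL2*, *Slamf1* differed by 0.71 (0.12 to 1.31) and *Icam1* by 0.81 (0.17 to 1.45). The GC steps of WT came from 23 cells. Several of these steps had no settled direction. The fold behind the *Cd40* step of WT was 1.07 (0.669 to 1.62), and the step turned negative in 3 of 8 alternatives, down to -0.44. The *Cd83* step of 3′RR-*BCL2* had an interval that held 0 (-0.22 to 0.02). That of WT kept its direction in 8 of 8 alternatives, but went down to 0.14. In IFN-like cells of 3′RR-*BCL2*, the *Slamf1* step of 0.09 turned negative in 4 of 8 alternatives, down to -1.01, and the *Icam1* step of 0.39 in 1 of 8.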

How the results depend on the processing

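No paired analysis was possible because there was 1 library per genotype, and for the same reason no library could be left out. Of 61 ratios of the 9 genes past 1.5-fold, whatever their UMIs, 460 of 466 values under alternatives kept their direction and 402 were still past that fold. Among genes with enough UMIs, the direction turned for *Pdcd1lg2* in marginal zone-like cells of 3′RR-*BCL2*, whose log2 ratio went from 0.68 to -0.997 with the 0.1% marker limit. *Slamf1* in non-dividing GC-like cells kept its direction under all alternatives, with log2 ratios of 0.43 to 1.48 in WT, 1.08 to 1.22 in the transgenic and 1.07 to 1.61 in the knock-in library.

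The summed level of the 9 genes moved with the denominator. Without immunoglobulin, ribosomal protein and mitochondrial genes it was 1179 in place of 824 in resting-like cells of WT, 1205 in place of 843 in 3′RR-*BCL2* and 1099 in place of 783 in Igκ-*BCL2*, and in non-dividing GC-like cells 1475, 1254 and 1137 in place of 1021, 883 and 815. In the WT GC it was 703 with the 0.1% limit, 814 at 1000 UMIs and 851 with the looser cell filter. In resting-like cells it was 834 (WT) at 1000 UMIs, and 797 (WT) and 825 (3′RR-*BCL2*) at 4000 UMIs.

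Counts of the 9 genes called in the GC over resting changed mainly in WT. Higher in WT went from 3 to 0 (0.1% limit) and 1 (minimum of 50 UMIs). Lower in WT went from 1 to 2 (5% limit, 1000 or 4000 UMIs, looser filter, minimum of 5) and 0 (minimum of 50), and lower in 3′RR-*BCL2* from 2 to 1 (minimum of 50). Against WT in the GC, higher in 3′RR-*BCL2* went from 1 to 0 (0.1% and 5% limits, minimum of 50) and 2 (minimum of 5), and lower from 0 to 2 (5% limit) and 1 (4000 UMIs). In Igκ-*BCL2*, higher went from 0 to 1 (1000 UMIs, minimum of 5), and lower from 3 to 0 (0.1% limit, 1000 UMIs) and 1 (minimum of 50). In resting-like cells, higher than WT went from 1 to 0 in 3′RR-*BCL2* (5% limit, minimum of 50) and in Igκ-*BCL2* (minimum of 50). Genes whose interval left out 1 in the *Myc* comparison of 3′RR-*BCL2* went from 0 to 2 at 4000 UMIs. The number of WT GC cells limits these counts, with 17 non-dividing cells at the 0.1% limit, 47 at 5%, 28 at 1000 and 38 at 4000 UMIs.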

Other observations

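A split of GC-like cells by *Cxcr4*, a dark zone marker, was added after the data were seen. It gave 18 cells with and 30 without a *Cxcr4* UMI in WT, 180 and 158 in 3′RR-*BCL2*, and 108 and 58 in Igκ-*BCL2*. No interval of the 9 genes left out 1. *Slamf1* and *Icam1* of 3′RR-*BCL2* were at 83.3 and 72.2 CPM (UMIs per 1000000) with *Cxcr4* and at 123 and 108 without, with ratios of 0.675 (0.405 to 1.12) and 0.671 (0.387 to 1.15). *Flt3*, the highest gene of the dendritic cell list, was at 20.3, 29.98 and 28.9 CPM in non-dividing GC-like cells of the 3 libraries, against 4.46, 5.87 and 3.86 in resting-like cells, with 8, 6 and 6 of the 9 listed genes at 0 in the GC. The summed immediate early level of these GC-like cells was 3632, 5281 and 5223 CPM.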
